A study of Mus musculus with 6 samples.

Results

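Late immature olfactory sensory neurons (OSNs) are the neurons of the main olfactory epithelium that have stopped dividing and are extending their axons, but are not yet full sensory neurons. They were chosen here by a gate on UMIs (unique molecular identifiers, each standing for 1 captured mRNA molecule). Of the cells with at least 1000 UMIs and 500 genes, those with at least 5 UMIs of *Gap43*, more *Gap43* than *Omp* UMIs, fewer than 2 UMIs of *Tex15* and *Nhlh1* together and fewer than 5 UMIs of *Cyp2g1* were taken. The gate held 1453 of 24830 cells, namely 476 and 170 in swap replicates 1 and 2, 416 and 121 in control replicates 1 and 2, 94 in the *tetOP2* library and 176 in the gg8-tTA control library. The 6 libraries were single-cell RNA-seq of mouse main olfactory epithelium dissociated with papain, with no age given, 1 library per sample. Swap mice were Cbx*/* with a Cre driver. In these mice Cre removes *Cbx1*, which encodes HP1β, and puts *Cbx5*, which encodes HP1α, under the *Cbx1* promoter in the cells where the driver was active. Control replicate 1 was labelled WT with the Cre driver and control replicate 2 was labelled Cbx*/* without Cre, so that the controls differed from each other in both alleles. The *tetOP2* library was from a gg8-tTA; tetOP2iresGFP mouse, in which the *Gng8* promoter drives tTA and tTA drives the olfactory receptor P2 (*Olfr17*), and its control carried gg8-tTA alone.

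In the olfactory lineage, immediate neuronal precursors become immature OSNs, which make growth cone and microtubule proteins while the axon grows to the olfactory bulb. Each OSN settles on 1 olfactory receptor (OR) gene during this period, through enhancers bound by Lhx2 and Ldb1, while the other OR genes lie in heterochromatin that carries H3K9me3 and binds HP1 proteins. The cilia and the odorant signalling cascade (receptor, G protein, adenylyl cyclase, cyclic nucleotide-gated channel, chloride channel) are completed as the neuron matures. The epithelium is also patterned from dorsal to ventral, with *Nqo1* and *Acsm4* in dorsal OSNs and *Nrp2* in ventral ones.

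The cells of the gate carried the markers of their stage. *Gap43* (growth cone protein), *Gng8* (G protein γ subunit of immature OSNs), *Stmn2* (microtubule regulator) and *Calb2* (calretinin, a calcium-binding protein) were all 4 present in 85.5% and 80.6% of the members in the swap samples, 77.6% and 78.5% in the control libraries, 87.2% in the *tetOP2* library and 92.0% in its control. *Gap43* was used by the gate, so its level is no finding. Only 1 member in swap replicate 2 and 1 in control replicate 1 had none of the other 3 markers. The median depth was 9545.5 and 10350 UMIs per cell in the swap samples, 11013 and 12525 in the controls, and 9628.5 and 10036 in the *tetOP2* library and its control, so that members of both swap libraries were shallower than those of both control libraries. Cells at exactly 5 *Gap43* UMIs, just inside the gate, numbered 3 to 28 per library and had *Gng8* in 66.7% to 78.6%, and cells at 4 UMIs, just outside it, numbered 4 to 24 and had *Gng8* in 57.1% to 100% of cells. No cell barcode among the members was shared between libraries.

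Members were not spread evenly over libraries, and the spread did not follow genotype. They were 9.51% and 3.44% of the kept cells in the swap samples and 8.17% and 2.73% in the controls, against 3.67% and 6.30% in the *tetOP2* library and its control. Both libraries of replicate 1 lay above both of replicate 2. The swap minus control difference of 1.02 percentage points (swap 6.48 ± 4.30, control 5.45 ± 3.85, SD, n = 2) was smaller than the spread between replicates in an exact two-sided permutation test (p = 0.667), and without 1 library it ran from -2.01 to 4.06. With 2 libraries against 2, the smallest p of this exact permutation test is 0.33, so that no share can pass 0.05. Sex also differed, since *Xist* was at 1917 CPM (the gene's UMIs over all UMIs of the members, scaled alike in every library) in swap replicate 1, 2153 in the *tetOP2* library and 1957 in its control but at 0 to 2.85 in swap replicate 2 and both controls, and *Eif2s3y* was at 0 where *Xist* was high. The part of sex in the genotype differences was not tested.

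RNA of other cell types was found in the members, in some libraries from single cells and in others spread over most of them. The summed level of 8 sustentacular cell genes was 223 and 103 CPM in the swap samples, 112 and 96.2 in the controls, and 473 and 534 in the *tetOP2* library and its control, led by *Cbr2* or *Sec14l3*, and all 8 genes were detected in every library. At least 1 UMI of the list was in 52.4% to 60.3% of the members of the swap and control libraries and in 96.8% and 97.7% of those of the *tetOP2* library and its control. *Trpc2*, *Vmn1r85*, *Vmn2r1* and *Tfap2e*, which mark vomeronasal neurons, were at 0 in every library. The 3 other genes of that list of 7 were detected in every library, with *Gnao1*, a G protein α subunit, at 292 to 614 CPM, *Gnai2*, another one, at 8.24 to 54.0 CPM and the transcription factor *Meis2* at 0.561 to 26.3 CPM. Neutrophil genes summed to 1175 CPM in swap replicate 1 against 31.4 in swap replicate 2, 23.3 and 28.9 in the controls and 161 and 80.7 in the other libraries, and 2390 of the 2612 *S100a9* UMIs of swap replicate 1 were in 1 cell. Fibroblast genes, led by *Col1a1* or *Col1a2*, summed to 886 CPM in swap replicate 1, 4.57 in swap replicate 2, 46.4 and 4.12 in the controls, and 236 and 292 in the other libraries. In swap replicate 1, 3931 of the 4188 fibroblast UMIs were in 1 cell, whereas in the gg8-tTA control they were spread over 164 of 176 members and in the *tetOP2* library over 78 of 94. Neutrophil genes were in 70 of the 94 members of the *tetOP2* library, with at most 6 UMIs in a cell. Ensheathing glia genes had 360 and 328 UMIs in the swap samples and 252 and 46 in the controls, with up to 137 in a single cell. Of the 4 of them tested, 2 were higher in swap without overlap (median log2 fold change 1.43), as were 12.1% of all 10965 genes tested. With 4 genes no conclusion is drawn from this count. Horizontal basal cell genes summed to 132 CPM in swap replicate 1, 3.43 in swap replicate 2, 2.40 and 2.06 in the controls and 20.5 and 124 in the other libraries. The part of this RNA in the results was not tested. Genes of these lists are therefore given no place among the genotype differences below.

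The first question was which genes are present at this stage. Members were compared with 2348 early immature neurons (at least 2 UMIs of *Tex15* and *Nhlh1*, at least 1 of *Gap43* and more *Gap43* than *Omp*) and 5666 mature neurons (*Omp* at 5 UMIs or higher and above *Gap43*), in the same 6 libraries. The gates were set on genes of the same cells, so the stage differences are a description with no test. Among 8431 genes outside the OR genes at 10 CPM or more, 240 (2.85%) were highest in late immature neurons in all 6 libraries, 894 (10.6%) went up from early to late to mature in all 6, 843 (10.0%) went down, and 53 (0.629%) were lowest in late immature neurons.

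Genes with a peak at this stage were led by *Calb2*, *Ly6h* and *Gng3*. *Calb2* was at 3057 and 2190 CPM in the swap samples, 2852 and 2629 in the controls and 2854 and 2654 in the *tetOP2* library and its control. Its mean over the 6 libraries was 2706 ± 297 CPM (SD) against 1582 ± 419 in early immature and 1310 ± 346 in mature neurons, and it stood first among the 2541 genes that reached 50 CPM in every library. *Gng3*, a G protein γ subunit of neurons, was at 126 ± 20.7 CPM against 78.5 ± 19.9 and 45.7 ± 14.5, and *Ly6h*, a GPI-anchored protein of neurons, at 409 ± 95.2 against 286 ± 77.8 and 166 ± 60.3. The microtubule regulator *Stmn3* (1683 CPM late, 1329 early, 1004 mature), the postsynaptic scaffold *Homer2* (1156, 899 and 631), the calcium-binding protein *Tesc* (1215, 860 and 930), the adhesion protein *Tenm2* (442, 224 and 263) and the ubiquitin hydrolase *Uchl1* (1521, 1223 and 1182) were also highest in the late stage in every library. *Mgst3*, *Hsd17b12*, *Ddost* and *Herpud1*, which act at the endoplasmic reticulum, were also among the 15 leading genes, with *Herpud1* at 381 CPM late, 309 early and 242 mature. The stage plot shows these curves beside those of the marker and signalling genes.

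**Figure D1:**
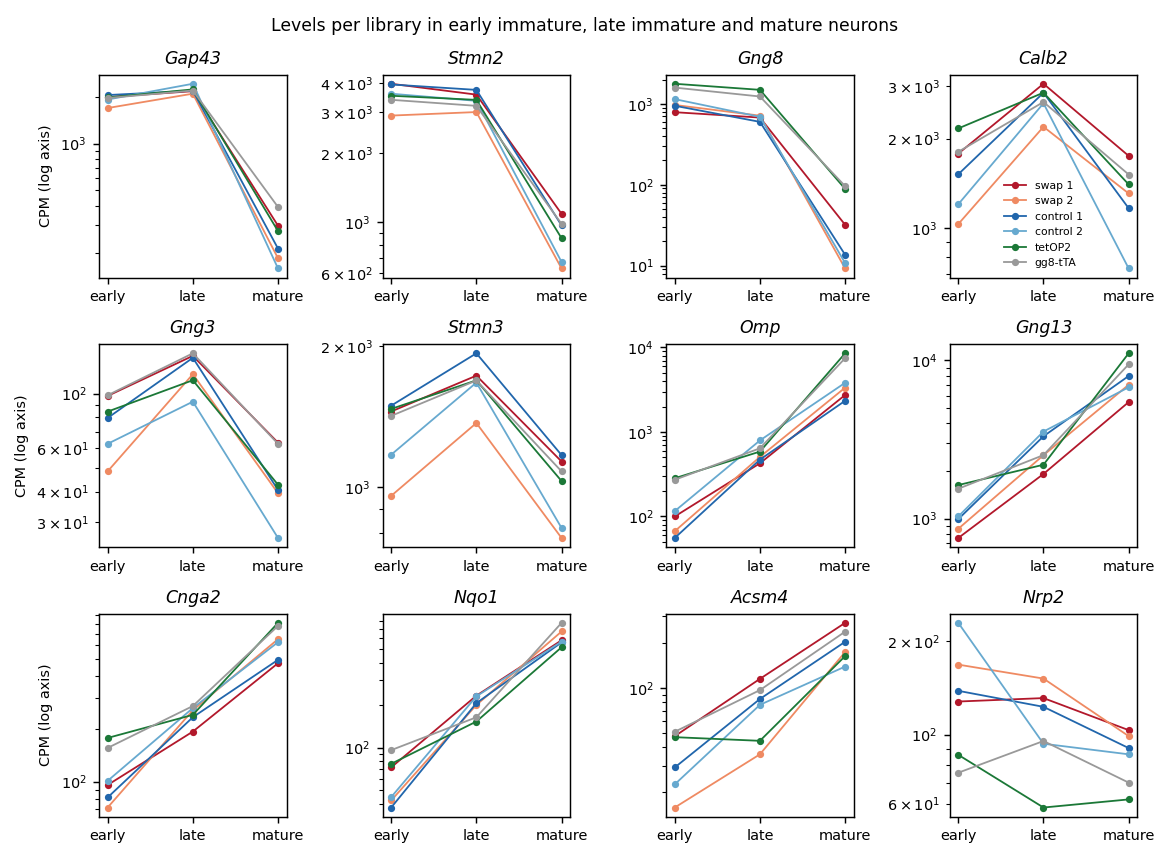
Levels of 12 genes in early immature, late immature and mature neurons, in CPM on log axes, 1 line per library. *Calb2*, *Gng3* and *Stmn3* peak in the late immature stage in every library, *Gap43* and *Stmn2* are near their highest level there, and *Omp*, *Gng13*, *Cnga2* and *Nqo1* climb through it in every library.

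Of 18 cytoskeleton and growth cone genes, 9 went down over the 3 stages, 2 (*Stmn3* and *Dcx*) were highest in the late stage, 1 (*Stmn4*) went up and 6 had no common order. *Stmn1*, which destabilises microtubules, was at 5263 CPM early, 4284 late and 437 mature, and *Tubb2b*, a neuronal tubulin, at 2834, 2172 and 226. *Dpysl3*, a collapsin response mediator in the growth cone, was at 1385, 994 and 70.0 CPM. Members thus lay closer to early immature than to mature neurons for these 3 genes. *Gng8* was at 1202, 902 and 41.8 CPM over the 3 stages, and its late level was 1492 CPM in the *tetOP2* library and 1234 in its control, which carry the gg8-tTA transgene, against 600 to 715 in the 4 other libraries.

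Precursor genes differed in how much was left of them. *Tex15* and *Nhlh1* set the gates and are not counted. Of the 10 other early immature genes, 6 went down and 4 had no common order. *Neurod1*, a precursor transcription factor, was at 102 CPM early, 2.15 late and 2.70 mature. *Sox11*, another transcription factor of immature neurons, was at 2678, 1208 and 106 CPM and *Insm1*, a repressor of neuronal progenitors, at 593, 493 and 110, so that both remained well above their mature level. Cell cycle genes were low, with *Mki67* at 31.6 CPM early, 8.27 late and 12.6 mature and *Top2a*, a topoisomerase, lowest in the late stage on average at 6.19 CPM against 51.0 early.

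Of 14 signalling genes that passed the minimum of 10 CPM, leaving out *Omp*, 13 went up in all 6 libraries, and *Adcy3*, the adenylyl cyclase of the cascade, had no common order between early and late (45.3 and 54.4 CPM) before 626 CPM in mature neurons. *Gng13*, the G protein γ subunit of olfactory cilia, was at 1136, 2669 and 7965 CPM, *Gnal*, the olfactory G protein α subunit, at 205, 729 and 2215, and the channel subunit *Cnga2* at 114, 243 and 639. *Omp*, used by the gates, was at 149, 571 and 4705. The part of the cascade that stood highest in members relative to mature neurons was *Gnb1* (1382, 1991 and 2933), which is not limited to OSNs, and the part that stood lowest was *Adcy3*. Of 8 genes of receptor trafficking and the unfolded protein response, 3 went up, 1 was highest in the late stage and 4 had no common order. *Rtp1* and *Rtp2*, which carry ORs to the membrane, were at 154, 257 and 522 CPM and at 111, 199 and 366, while *Atf5*, the transcription factor of the unfolded protein response that OR choice induces, was highest in the late stage (2709, 3101 and 2674). *S100a5*, which depends on odorant activity, was at 156, 427 and 11609 CPM, and its late level ran from 228 CPM in the gg8-tTA control to 1131 in control replicate 2.

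Of 10 genes of OR choice, 6 went down over the stages and 4 had no common order. *Lhx2*, which binds OR enhancers, was at 1213, 700 and 559 CPM, its cofactor *Ldb1* at 119, 71.1 and 39.1, *Ebf1* at 735, 601 and 414, and *Kdm1a*, the histone demethylase LSD1, at 262, 184 and 86.4. Among 15 genes of H3K9 methylation and its readers and cofactors, 4 went down (*Hdac2*, *Trim28*, *Chd4* and *Kdm1a*) and 11 had no common order. *Cbx3*, which encodes HP1γ, was at 348, 302 and 205 CPM and was the most abundant HP1 gene of the members in every library.

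Axon guidance genes did not share 1 order. Of 24 genes, 7 went up, 1 went down, 1 (*Ncam2*) was highest in the late stage and 15 had no common order. *Pcdh10*, a protocadherin, was at 59.9, 131 and 244 CPM, the ephrin receptor *Epha5* at 11.9, 50.3 and 248, and *Kirrel2*, an adhesion molecule that sorts OSN axons, at 11.9, 25.5 and 72.4. *Nrp1*, a semaphorin receptor, was at 190, 172 and 85.8 CPM and *Nrcam*, an adhesion molecule, at 11.8, 15.4 and 3.96. *Epha5* and *Plxna4*, which encodes a plexin, varied between libraries by more than the other genes, with late levels of 4.32 and 15.1 CPM in the *tetOP2* library against 94.1 and 101 in control replicate 2.

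The second question was whether the swap changed gene expression at this stage. UMIs were summed per library over the members, and 10965 genes, 107 of them OR genes, were tested with edgeR's quasi-likelihood test, with 2 libraries per genotype. A call needed a Benjamini-Hochberg adjusted p under 0.05 and a log2 change larger than 0.58 either way, and no gene met both (0 of 10965, 0.0%), and the smallest adjusted p of edgeR's quasi-likelihood test was 0.0547. An unadjusted p below 0.05 was found for 233 genes (2.12%), which were 38 of the 107 OR genes (35.5%, 21 higher and 17 lower in swap) and 195 of the 10858 other genes (1.8%, 113 higher and 82 lower). Only 107 of the 1116 OR genes had enough UMIs to be tested. Some of them did so only through the genotype in which a few cells chose them. The filter thus favours small p among OR genes, and no conclusion is drawn from their larger share. DESeq2 called 32 genes (0.292%), 25 of them OR genes, with *Cbx5*, *Tcfl5*, *1700030C10Rik*, *Gm7534* and *Cd74* higher and *Cbx1* and *Th* lower among the other genes. With the replicate number as a block edgeR called 103 genes, though the numbers are not known to pair the samples. Those among the named genes are listed in the closing section. Counts of calls by edgeR depended on single libraries, with 219 calls without swap replicate 1, 28 without swap replicate 2, 55 without control replicate 1 and 135 without control replicate 2, where the lone library of a group is assumed to vary like the others.

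The HP1 genes followed the labels, as a check of them. *Cbx1* had 9 and 8 UMIs in the members of the swap samples and 455 and 236 in those of the controls, or 1.90 and 4.57 CPM against 99.2 and 162, with 43.2 CPM in the *tetOP2* library and 49.3 in its control. It was found in 9 of 476 and 8 of 170 members of the swap samples and in 257 of 416 and 91 of 121 members of the controls. Sustentacular cells of the same swap libraries were as low, with *Cbx1* in 10 of 657 and 25 of 706 cells against 407 of 844 and 262 of 543, so that the low level was not limited to neurons. Swap and control did not overlap in the members, and the log2 fold change was -5.54 (SE 0.47, edgeR adjusted p = 0.0547). Its adjusted p was below 0.05 in 8 of 13 alternative analyses, and edgeR called it once the OR genes were left out. *Cbx5* was at 100 and 114 CPM in the swap samples and at 27.7 and 45.3 in the controls, a log2 fold change of 1.56 (edgeR adjusted p = 0.473), and a read of *Cbx5* may come from its own locus or from the swap allele, which the counts cannot tell apart. *Cbx3* was at 286 and 322 CPM against 328 and 289, so that the genotypes overlapped (log2 fold change -0.05).

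Of the other genes, *Tcfl5* and *1700030C10Rik* stood apart in many members. *Tcfl5*, a transcription factor gene of the helix-loop-helix family, had 311 and 61 UMIs (65.8 and 34.8 CPM) in the swap samples, 17 and 10 (3.71 and 6.87 CPM) in the controls, and 2 and 1 in the *tetOP2* library and its control. It was found in 206 and 50 members of the swap samples against 13 and 9 members of the controls, with no more than 4 UMIs in any cell (log2 fold change 3.40, SE 0.48, edgeR adjusted p = 0.292). *1700030C10Rik*, a gene without a given function, had 70 and 22 UMIs in the swap samples and 2 and 0 in the controls, from 58 and 20 members against 2 and 0 (log2 fold change 5.21, SE 0.70, edgeR adjusted p = 0.179). Neither difference was limited to the members. *Tcfl5* was also found in 67 of 657 and 35 of 706 sustentacular cells (at least 5 UMIs of *Cyp2g1*, under 2 of *Gap43*) of the swap samples and in 3 of 844 and 2 of 543 of the controls, *1700030C10Rik* in 77 and 78 sustentacular cells of the swap samples and in 1 and 0 of the controls. In early immature and mature neurons, fitted separately, the log2 fold change of *Tcfl5* was 2.97 and 5.40 and that of *1700030C10Rik* 5.86 and 5.31.

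**Figure D2:**
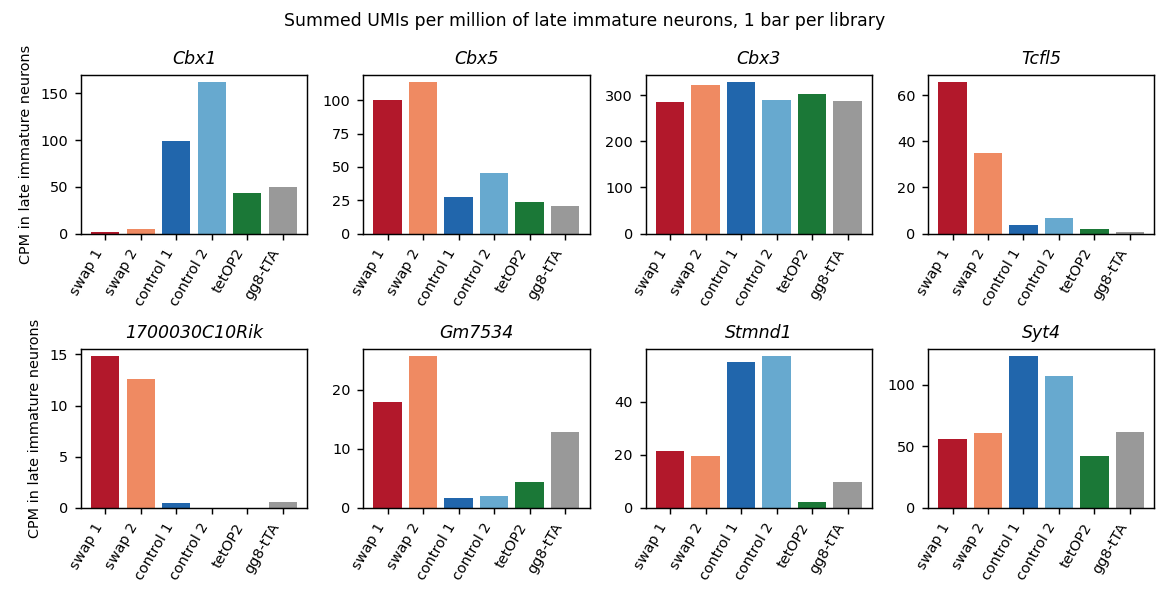
CPM of 8 genes in late immature neurons, 1 bar per library. *Cbx1* is near 0 in both swap libraries, *Tcfl5* and *1700030C10Rik* are high only in the 2 swap libraries of the 6 shown, and *Cbx3* lies at 286 to 328 CPM in all 6.

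The promoters of *Cbx1*, which drives *Cbx5* in the swap mice, and of *Tcfl5* and *1700030C10Rik* are shown. The last 2 are the named genes outside OR genes that were higher in swap, had an entry and did not have most of their UMIs in single cells. The 250 bases before the start of each gene were taken from RefSeq on GRCm38.p6, at chr11:96788885-96789134 (plus strand) for *Cbx1*, chr2:180642692-180642941 (minus strand) for *Tcfl5* and chr12:20815780-20816029 (minus strand) for *1700030C10Rik*, written 5′ to 3′ with every CG in capitals, a letter pair that reads the same on both strands:
Cbx1: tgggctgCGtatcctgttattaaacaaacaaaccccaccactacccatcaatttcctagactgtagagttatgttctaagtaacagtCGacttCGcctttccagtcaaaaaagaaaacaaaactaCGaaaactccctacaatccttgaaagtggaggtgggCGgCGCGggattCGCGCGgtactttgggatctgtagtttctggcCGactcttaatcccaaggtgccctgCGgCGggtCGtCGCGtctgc
Tcfl5: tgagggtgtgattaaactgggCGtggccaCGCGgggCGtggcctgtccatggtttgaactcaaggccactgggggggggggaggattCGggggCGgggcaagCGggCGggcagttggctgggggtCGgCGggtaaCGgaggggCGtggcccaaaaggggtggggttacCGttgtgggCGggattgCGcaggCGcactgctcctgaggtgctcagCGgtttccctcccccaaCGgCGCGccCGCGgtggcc
1700030C10Rik: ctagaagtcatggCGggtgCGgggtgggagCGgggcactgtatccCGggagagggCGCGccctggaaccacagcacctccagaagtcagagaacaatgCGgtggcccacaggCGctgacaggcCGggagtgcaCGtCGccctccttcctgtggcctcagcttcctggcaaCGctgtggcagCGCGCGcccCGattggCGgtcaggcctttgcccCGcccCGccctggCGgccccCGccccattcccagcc
They hold 16, 22 and 21 CG pairs, against a median of 6 over the 32851 RefSeq windows of this length. At least as many were found in 25.4%, 14.8% and 16.3% of all windows. *Gm7534*, which had a smaller p than *Tcfl5*, and *Syt4* had no entry.

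Some of the other named genes rested on single cells and others on many. *Gm7534* had 85 and 45 UMIs in the swap samples against 8 and 3 in the controls, from 45 and 24 members against 7 and 3, and 23 UMIs in the gg8-tTA control (log2 fold change 3.47, edgeR adjusted p = 0.266). *Cd74*, the invariant chain of antigen presentation, had 63 and 43 UMIs against 5 and 1, but 40 and 41 of them were in 1 cell of each swap library, and *Cck*, a neuropeptide gene, had 66 and 122 UMIs against 1 and 2, with 52 and 122 in 1 cell each. *Th*, which encodes tyrosine hydroxylase, had 3 and 0 UMIs in the swap samples against 32 and 27, of which 30 and 27 were in 1 cell each. The values of *Cd74*, *Cck* and *Th* are thus mostly those of single cells. *Kcnh7*, a potassium channel gene, had 4 and 1 UMIs against 22 and 9 (log2 fold change -2.75). *Stmnd1*, a stathmin domain gene, had 101 and 34 UMIs (21.4 and 19.4 CPM) in the swap samples and 251 and 83 (54.7 and 57.0 CPM) in the controls, from 58 and 21 members against 110 and 39 (log2 fold change -1.47, SE 0.26, edgeR adjusted p = 0.419). *Syt4*, a synaptotagmin of dense-core vesicles, was at 56.3 and 60.5 CPM against 123 and 107 (log2 fold change -1.01), and both genes were lower still in the gg8-tTA libraries or level with the swap, at 2.16 and 9.53 CPM for *Stmnd1* and 42.1 and 61.7 for *Syt4*.

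*Gng8*, *Stmn2* and *Calb2* overlapped between the genotypes, with log2 fold changes of 0.09, -0.14 and -0.09. *Gap43*, which the gate used, was at -0.13. Of the 18 cytoskeleton genes, 11 lay above 0 and 7 below, with a median of 0.02. Of the 26 axon guidance genes tested, 13 lay above and 13 below 0, and 16 genes of H3K9 methylation had 8 on each side (median -0.01).

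Genes of odorant signalling were mostly at lower values in the swap members than in the controls, and in the fits without a replicate block neither edgeR nor DESeq2 called any of them. *Omp* was used by the gate and is left out of these counts. Of the 15 others tested, 14 had a log2 fold change below 0, with a median of -0.40 beside -0.0003 over all genes. In 10 of the 15 both swap libraries lay below both controls (9 on CPM without the TMM scaling, where *Stoml3* overlapped), as they did for 11.2% of all genes tested. An unadjusted p below 0.05 of edgeR's quasi-likelihood test was found for 4 of them, and 0 passed after adjustment. *Gng13* was at 1916 and 2517 CPM in the swap samples, 3317 and 3553 in the controls, and 2191 and 2521 in the *tetOP2* library and its control (log2 fold change -0.66, SE 0.21, unadjusted p = 0.0173 and adjusted p = 1.00 in edgeR's quasi-likelihood test). The phosphodiesterases *Pde1c* and *Pde4a* and *Ric8b*, a chaperone of the olfactory G protein, had log2 fold changes of -0.61, -0.56 and -0.55. In 8 of the 15 genes both gg8-tTA libraries lay below both swap libraries, as they did for 32.5% of all genes tested, so that low values in these libraries were common beyond this list. Among the 8 were *Gnal* (612 and 1024 CPM in swap, 732 and 1407 in the controls, 259 and 341 in the gg8-tTA libraries), *Ric8b* (90.1 and 112, 142 and 148, 79.9 and 73.5) and *Stoml3*, a stomatin of olfactory cilia (28.1 and 53.7, 53.0 and 73.5, 7.56 and 14.0). *Cngb1* was the exception in direction, at 28.8 and 40.0 CPM against 29.0 and 36.4. Of 12 cilia genes, 10 lay below 0, with a median of -0.19. Of the 8 early immature genes tested that no gate used, 6 lay above 0 (median 0.30), led by *Rcor2* (0.90) and *Nhlh2* (0.81). All 5 proliferation genes tested also lay above 0 (median 0.61), and 0 were called. *Top2a* was at 12.7 and 10.3 CPM in the swap samples against 1.74 and 4.12 in the controls (log2 fold change 2.21). These are low levels, and whether they rest on single cells was not examined.

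**Figure D3:**
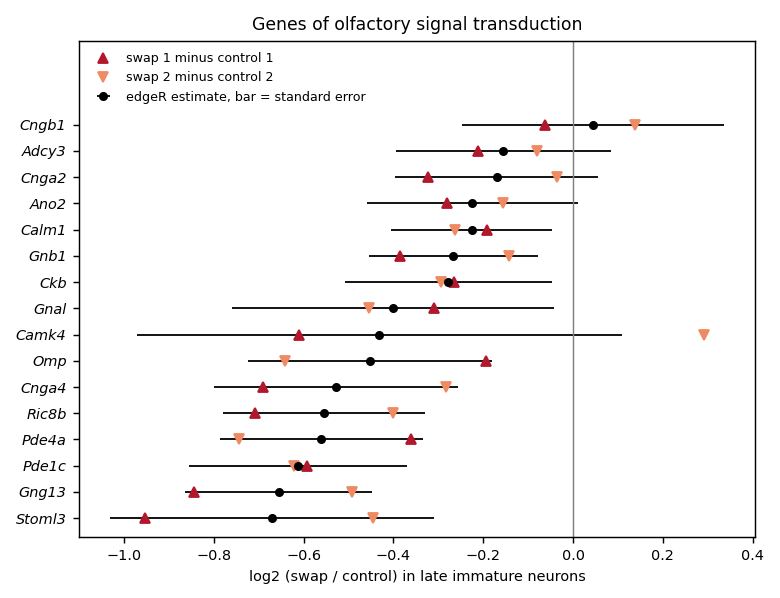
Log2 ratio of swap to control in late immature neurons for 16 signalling genes, among them *Omp*, which the gate used. Black points are the edgeR estimates, with bars of the standard error derived from the F statistic of the test. Triangles are the differences within replicate 1 and within replicate 2. All estimates but that of *Cngb1* are below 0, and 11 of the standard error bars do not reach 0.

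Depth and *Omp* moved with this difference. The share of members without an *Omp* UMI was 39.5% and 39.4% in the swap samples, 31.7% and 24.8% in the controls and 19.1% and 18.8% in the other libraries. Members were therefore thinned to 3000 UMIs each and split by *Omp*. Among cells at 0 *Omp* UMIs *Gng13* was at 925 and 1053 CPM in the swap samples and at 1709 and 1324 in the controls, and among cells with at least 2 it was at 3287 and 4333 against 4822 and 4461. Swap and control did not overlap for *Gng13* within either stratum. *Cnga2*, *Gnal* and *Adcy3* overlapped in both. *Cnga2* was at 92.1 and 93.5 CPM in the swap samples against 144 and 78.4 in the controls at 0 *Omp* UMIs. With at least 2 *Omp* UMIs it was at 328 and 380 against 294 and 339. Whether the swap members were on average at an earlier point of the stage was not tested.

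The third question was which ORs the members had chosen. A cell's chosen OR was the OR gene with the most UMIs, with at least 3 and no tie. After thinning to 3000 UMIs, 59.1% (274 of 464) and 62.0% (101 of 163) of the members of the swap samples had one, against 69.3% (280 of 404) and 72.7% (80 of 110) in the controls, 63 of 94 members in the *tetOP2* library and 56.8% in its control. The same shares in sustentacular cells, which make no ORs, were 3.57% to 14.2%. Without thinning they were 66.4% and 70.0% in the swap samples and 76.7% and 78.5% in the controls. The libraries of the 2 genotypes did not overlap, and the difference of -10.5 percentage points (swap 60.5 ± 2.06, control 71.0 ± 2.42, SD, n = 2) gave p = 0.33 in the exact permutation test, the smallest it can give. In thinned cells with 0 *Omp* UMIs the shares overlapped, at 47.2% and 46.3% against 54.3% and 47.1%, and the difference was -3.94 (exact permutation p = 0.667), and in cells with an *Omp* UMI it was -8.77. The gg8-tTA control lay below both swap libraries, so that the libraries without the swap ran from 56.8% to 72.7%.

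Median OR UMIs per cell went up from stage to stage in 5 of the 6 libraries, as a description with no test. The median number of OR UMIs in a thinned cell was 3 and 3 in early immature neurons of the swap samples and 14 and 21 in their mature neurons, with the late immature neurons at 6 and 8. The controls were at 2 and 3 early, 10 and 13 late and 16 and 21 mature, and the late difference between swap and control was -4.5 UMIs (exact permutation p = 0.33). The gg8-tTA control was at 4, 6.5 and 21, and the *tetOP2* library at 9, 9 and 25, with no increase from early to late. Cells at 0 *Omp* UMIs had medians of 3 and 3 in the swap samples and 6 and 3 in the controls, and cells with at least 2 had 11 and 18 against 14 and 17, so that the genotypes overlapped in both strata. Over cells with any *Omp* UMI the difference was -1.5. The plot by *Omp* shows the medians, the shares with a chosen OR and *Gng13* together.

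**Figure D4:**
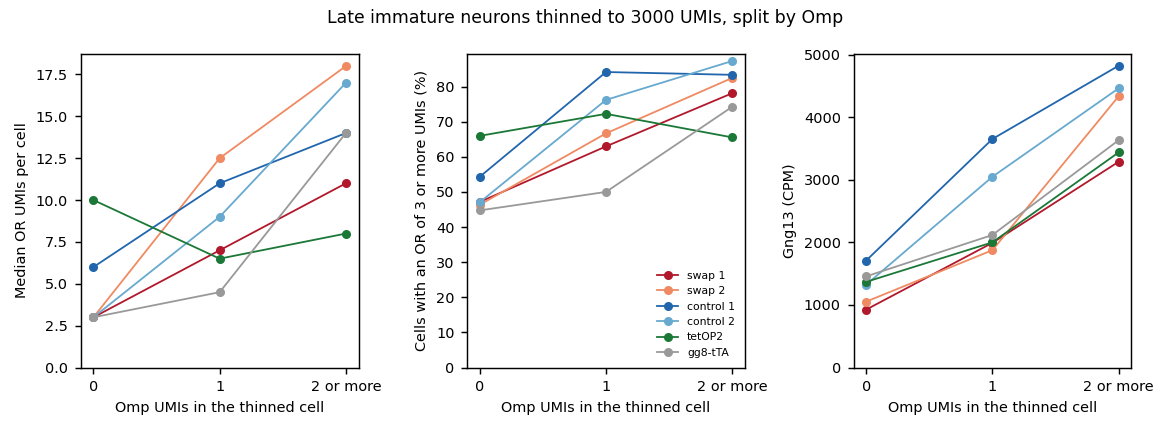
Late immature neurons thinned to 3000 UMIs and split by their *Omp* UMIs, 1 line per library, with the median OR UMIs per cell, the share of cells with an OR of at least 3 UMIs and *Gng13* in CPM. The 3 measures are higher with 2 or more *Omp* UMIs than with 0 in every library except the OR measures of the *tetOP2* library, and *Gng13* is lower in both swap libraries than in both controls at each *Omp* class.

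A second OR of at least 3 UMIs was rare. It was found in 2.55% and 5.94% of the thinned members with a chosen OR in the swap samples, 3.93% and 2.5% in the controls, 4.76% (3 of 63) in the *tetOP2* library, and 0 of 100 in its control, which allows a share of up to 3% by a floor of 3 counts (exact interval up to 3.62%). Sustentacular cells with a chosen OR gave 0% to 11.9% over the libraries, a range that held every share of the members, so that the shares cannot be told apart from background. The genotypes overlapped (difference 1.03 percentage points, exact permutation p = 0.667).

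The members covered many ORs with few cells each. In all cells, 316 and 119 members of the swap samples chose 216 and 96 different ORs, and 319 and 95 members of the controls chose 249 and 91. In equal draws of 95 cells the mean was 82.5 and 80.0 different ORs in the swap samples against 87.3 and 91.0 in the controls, a difference of -7.93 without overlap (exact permutation p = 0.33). The ORs chosen by most members of the control libraries were *Olfr1348*, *Olfr292* and *Olfr827* with 5 cells each and *Olfr211*, *Olfr309* and *Olfr536* with 4 each, and in the swap samples these were chosen by 0, 0, 1, 0, 4 and 0 cells. A further 12 ORs, tied at 3 control members each, filled the last places of the 10 to be named, and of these *Olfr15* is described below. *Olfr1271* was the OR of 9 swap members and 2 control members, *Olfr77* of 7 and 0, *Olfr813* of 6 and 1 and *Olfr769* of 6 and 0. These ORs were picked for high counts in the controls or in the swap samples. Lower counts in the other genotype were favoured by that choice.

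The OR genes of the test reflect such cells. The 5 OR genes with the smallest p that were higher in swap were *Olfr77*, *Olfr1222*, *Olfr1380*, *Olfr1100* and *Olfr202*, and the 5 that were lower were *Olfr211*, *Olfr1509*, *Olfr411*, *Olfr676* and *Olfr743*. *Olfr77* (chr9:19917229-19922510) had 181 and 69 UMIs in the swap samples, from 6 and 1 cells that chose it, and 2 and 2 UMIs in the controls (log2 fold change 5.72, SE 0.49, edgeR adjusted p = 0.0547). *Olfr211* (chr6:116492669-116494540) had 0 and 0 UMIs against 121 and 60, from 3 and 1 cells. *Olfr743* (chr14:50533414-50534349) had 0 and 0 UMIs against 143 and 230 from 2 and 1 cells. *Olfr1380* had 62 and 36 UMIs against 0 and 0, all of them from 1 cell in each swap library, so that no bound on its fold is given. Each of these 10 genes was chosen by 2 to 7 members of the genotype in which it was higher. Most of these differences were not as large in mature neurons. The 10 genes were picked for a small p at the late stage, which by itself favours smaller differences in other cells. No difference between the stages is read from them. *Olfr743* and *Olfr676* were chosen by 0 mature neurons of the swap samples against 3 of the controls each, but *Olfr211* by 3 against 7, *Olfr1509* by 1 against 4, *Olfr411* by 5 against 9, *Olfr1222* by 6 against 4, *Olfr202* by 4 against 2 and *Olfr77* by 14 against 4. *Olfr1380* (1 against 1) and *Olfr1100* (2 against 3) had mature log2 fold changes of -0.54 and -0.82, opposite in sign to the late ones. Over all 107 OR genes tested, 21.5% were higher and 15.9% lower in swap without overlap, beside 12.1% and 11.2% of all 10965 genes. Genes such as *Olfr743* and *Olfr1380*, at 0 UMIs in both libraries of a genotype, passed the count filter only through the other genotype. The filter thus favours a lack of overlap among OR genes, and no conclusion is drawn from these shares.

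The window before *Olfr77*, the OR gene with the smallest p, is shown for its homeodomain letters, since Lhx2 binds sites with a TAAT core. The sequence is chr9:19916979-19917228 of GRCm38.p6 (RefSeq, plus strand), with each TAATTA, which reads the same on both strands, in capitals:
Olfr77: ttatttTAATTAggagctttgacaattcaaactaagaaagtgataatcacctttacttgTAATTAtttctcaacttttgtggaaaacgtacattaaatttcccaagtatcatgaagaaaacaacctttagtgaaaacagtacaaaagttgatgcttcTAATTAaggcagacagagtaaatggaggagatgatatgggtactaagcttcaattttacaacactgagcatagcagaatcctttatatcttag
It holds TAATTA 3 times. At least 1 copy was found in 4.84% of the 32851 windows and 18.1% of the 944 OR windows, and 3 copies or more in 0.0487% and 0.424%. A match of letters is not a binding site.

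Class I ORs, the fish-like ORs of a single cluster on chromosome 7 that are expressed dorsally, were chosen by 8.12% (25 of 308) and 2.56% (3 of 117) of the members of the swap samples with a known family, and by 9.90% (31 of 313) and 12.8% (12 of 94) in the controls, 6.14% in the gg8-tTA control and 1 of 68 cells in the *tetOP2* library. The libraries of the genotypes did not overlap, and the difference was -5.99 percentage points (exact permutation p = 0.33) and -3.22 without swap replicate 2. In early immature neurons the genotypes did not overlap either, at 10.3% and 6.29% in the swap samples against 11.4% and 10.9%. In mature neurons class I ORs were chosen by 74 of 671 and 107 of 931 cells of the swap samples and by 114 of 1019 and 121 of 1135 cells of the controls. The 95% interval of swap replicate 2 at the late stage, exact Clopper-Pearson like all intervals here and covering counting error only, ran from 0.532% to 7.31%.

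Among members whose OR had a position, ORs of ventral neurons were less frequent in the swap. An OR's position was the mean marker score of mature control neurons that chose it, in libraries other than the one described. At least 3 such neurons were needed, so ORs that few control neurons chose had no position and do not enter the shares. The 25% most ventral of the 214 to 327 scored ORs were called ventral. Of the members with a chosen OR, 43.7% and 31.9% in the swap samples and 39.2% and 31.6% in the controls had one with a position. Of the members whose OR had a position, 8.70% (12 of 138, 95% interval 4.57% to 14.7%) and 15.8% (6 of 38, 6.02% to 31.3%) chose a ventral OR in the swap samples, against 35.2% (44 of 125, 26.9% to 44.2%) and 33.3% (10 of 30, 17.3% to 52.8%) in the controls and 32.7% (16 of 49) in the gg8-tTA control. Both swap libraries lay below all 3 of these. The difference was -22.0 percentage points (swap 12.2 ± 5.02, control 34.3 ± 1.32, SD, n = 2, exact permutation p = 0.33, the smallest possible), and it ran from -25.6 to -18.5 without 1 library. The shares were already apart in early immature neurons, at 12.8% and 16.9% in the swap samples against 39.8% and 39.1%, and were 14.5% and 10.8% against 34.6% and 27.8% in mature neurons, while the gg8-tTA control was at 26.4% early and 23.0% mature. *Olfr1348* and *Olfr536*, which were scored ventral for both replicates, were chosen by 5 and 4 members of the controls and 0 and 0 of the swap samples. Both were named for their high counts in the controls, so lower counts in the swap were favoured by that choice and add no support. *Olfr15*, ventral by 1 of its 2 scores, was chosen by 3 and 3, so that not all ORs called ventral were fewer in the swap.

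**Figure D5:**
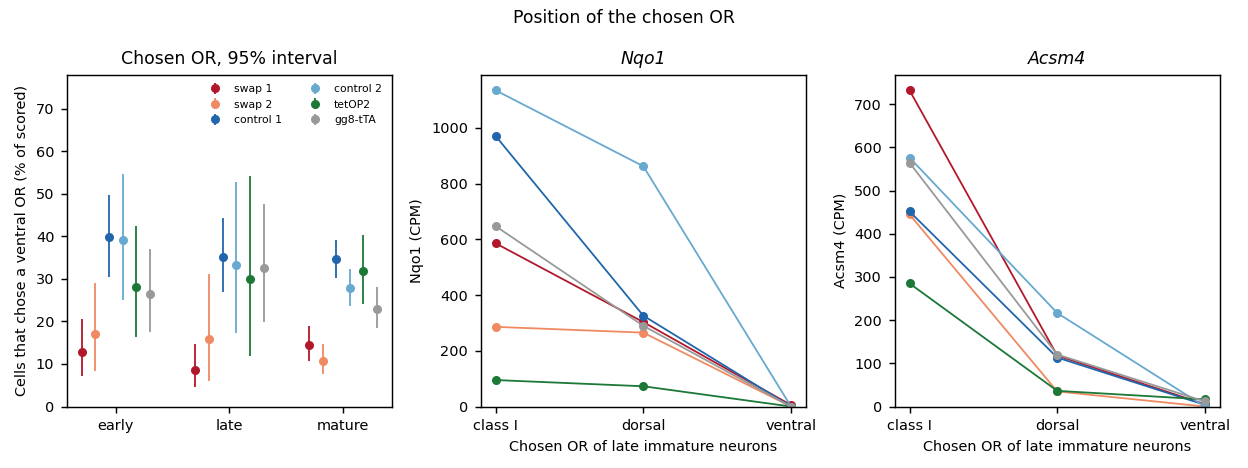
Left, share of cells that chose a ventral OR at each stage, in percent of cells whose OR has a position, with exact 95% intervals (counting error only). Centre and right, *Nqo1* and *Acsm4* in CPM in late immature neurons that chose a class I, dorsal or ventral OR, 1 line per library, *tetOP2* cells with *Olfr17* left out. The class I point of the *tetOP2* library is 1 cell. Late immature neurons of the swap samples are at 8.70% and 15.8%, below the 4 other libraries at 30% to 35.2%, and both genes are lowest in cells with a ventral OR, at no more than 16.5 CPM.

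Of the 7 dorsal genes, 4 (*Nqo1*, *Acsm4*, *Cartpt* and *Socs2*) were lower in members with a ventral OR in 6 of 6 libraries, while *Robo2*, *Sema3f* and *Cd55* were higher there in 1, 2 and 2 libraries (exact permutation p = 0.188, 0.156 and 0.344). *Nqo1*, a quinone reductase of dorsal OSNs, was at 234 and 201 CPM in the swap samples, 207 and 231 in the controls and 153 and 164 in the *tetOP2* library and its control, and its mean of 199 lay between 61.5 in early immature and 610 in mature neurons. In members that chose a dorsal OR its mean over the 6 libraries was 353 CPM, and in members that chose a ventral OR 0.884, with no UMI in 5 of the 6 libraries. It was lower in ventral-OR cells in 6 of 6 libraries (exact two-sided sign-flip permutation p = 0.031, adjusted p = 0.0938 over 18 genes). *Nqo1* of mature neurons helped to set the OR positions, as did *Acsm4*, *Nrp2*, *Ncam2*, *Robo2*, *Sema3f* and the *Nfi* genes, so this compares the stages and is no independent sign of position. *Cartpt* and *Socs2*, a neuropeptide gene and a cytokine signalling suppressor, were not used. They were at 519 CPM in dorsal-OR against 72.9 in ventral-OR members and at 620 against 342, lower in ventral-OR members in 6 of 6 libraries with the same exact permutation p, which is the smallest possible. Class I ORs went with still higher *Acsm4*, a mitochondrial acyl-CoA synthetase, at 285 to 732 CPM over the libraries, than the dorsal ORs (35.0 to 217 CPM), a set that includes some of the class I ORs. The class I value of the *tetOP2* library (285 CPM) is that of 1 cell, and that of swap replicate 2 of 3 cells. Those of the other libraries rest on 7 to 31 cells.

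Of the 11 ventral genes, 2 were higher in members with a ventral OR in 6 of 6 libraries, 4 in 5 of 6 (*Nrp2*, *Nfia*, *Cidea* and *Ifi27*), 3 in 4 of 6 (*Ncam2*, *Rprm* and *Pcp4l1*), *Pdlim1* in 3 and *Avp* in 1. *Nfix* and *Nfib*, transcription factors of the NFI family, were higher in ventral-OR members in 6 of 6 libraries (321 against 185 CPM and 199 against 131, exact permutation adjusted p = 0.0938 each). *Nrp2*, the semaphorin receptor of ventral axons, was higher in 5 of 6 (130 against 85.7, exact permutation p = 0.188) and *Cidea*, a lipid droplet gene, in 5 of 6 (87.1 against 25.6). *Nrp2* did not climb to maturity as *Nqo1* did, with 137, 109 and 85.2 CPM over the stages. *Avp*, the vasopressin gene, was nearly absent from members at 0 to 2.18 CPM, below its means of 4.84 early and 62.2 mature. It was found after thinning in 0 of 464 and 0 of 163 members of the swap samples and in 3 of 404 and 0 of 110 of the controls. The swap counts allow up to 0.647% and 1.84% of thinned cells with an *Avp* UMI by the same floor. Without thinning it was found in 1 of 476 and 0 of 170 members of the swap samples against 7 of 416 and 1 of 121 of the controls, without overlap (difference -1.15 percentage points, exact permutation p = 0.33), and in 0.237% to 0.992% of sustentacular cells of these 4 libraries. The difference was -0.371 after thinning to 3000 UMIs and 0 after thinning to 2000. *Pcp4l1*, a calmodulin-binding gene, was also lowest in the late stage (120, 79.8 and 781 CPM).

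The shares of members with *Nqo1*, *Acsm4* or *Nrp2* overlapped between the genotypes after thinning to 3000 UMIs and without thinning, but not under every setting. After thinning, *Nqo1* was found in 24.8% and 15.3% of the members of the swap samples and in 17.1% and 16.4% of the controls, where sustentacular cells gave 9.32%, 13.4%, 7.96% and 13.4%. The difference was 3.34 percentage points (exact permutation p = 1.00) and changed sign without swap replicate 1. Without thinning the shares were 31.1% and 20.6% against 25.2% and 24.8%. *Acsm4* was found in 16.8% and 8.59% against 12.6% and 11.8%, below its share in sustentacular cells (28.4% to 42.9% in these libraries), which express it. *Nrp2* was found in 23.7% and 32.5% against 24.5% and 22.7% (46.4% and 51.8% against 48.3% and 40.5% without thinning), with 0.666% to 2.55% in sustentacular cells. The *Nrp2* shares no longer overlapped after thinning to 2000 UMIs (difference 4.95) or with predicted doublets removed (4.79), nor those of *Nqo1* at 10 or more *Gap43* UMIs (5.78), each with the smallest possible exact permutation p of 0.33. *Nqo1* and *Nrp2* seldom met in 1 cell, in 2.59% and 1.84% of the swap members and 1.49% and 0.909% of the controls, whereas *Acsm4* was found in 51.3% and 24.0% of the *Nqo1* cells of the swap samples and 46.4% and 38.9% of those of the controls, against 5.44% to 6.52% of the cells without *Nqo1*. Of the 7 dorsal genes, 4 had a log2 fold change above 0 (median 0.12), and of the 10 ventral genes tested 7 lay below 0 (median -0.27), with 0 called in either list.

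The genotype difference was also compared between late immature and mature neurons in 1 model of both stages. Of 13427 genes, 0 passed edgeR's quasi-likelihood test for a difference between the stages (0.0%, smallest adjusted p = 0.548). An unadjusted p below 0.05 of that test was found for 475 genes (3.54%). DESeq2 called 22. Without control replicate 2 edgeR called 43, without either swap library 8 each, and without control replicate 1 again 0.

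In the *tetOP2* library the tTA-driven receptor was already the leading choice. *Olfr17* was the chosen OR of 29 of 69 members with a chosen OR (42%, 95% interval 30.2% to 54.5%), against 60.8% in early immature and 59.2% in mature neurons of the library and 0 of 115 members of the gg8-tTA control, with an exact 95% interval up to 3.16%. It was found in 57 of 94 members, at 1650 CPM, but also in 61.9% of sustentacular cells of that library, at 238 CPM. Of the 62 sustentacular cells with a chosen OR in that library, 49 (79.0%) had *Olfr17* as theirs, at a median of 4 UMIs. The minimum of 3 UMIs thus did not keep such cells out. Members that chose *Olfr17* held a median of 50 of its UMIs, while the other members with a chosen OR held 24 UMIs of theirs. Ventral ORs were chosen by 30% (6 of 20) of the scored members once *Olfr17* was left out, close to the 32.7% of the gg8-tTA control, and by 12.2% with it. With 1 library per group these values have no replicate check.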

How the data were processed

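UMI counts per gene and cell were used as deposited by the authors for 6 single-cell libraries of mouse main olfactory epithelium, made with the 10x Genomics v3 chemistry and counted on mm10 with introns included, by Cell Ranger 3.1.0 per the file headers of 4 of the 6 matrices. Each library held 2563 to 7703 barcodes and 32005196 to 63277934 UMIs over 24564 genes, 1116 of them OR genes. The filter of 1000 UMIs and 500 genes kept 57.5% to 100% of the barcodes. No cell was removed as a doublet in the main values, and 0 to 20 members of a library were predicted doublets. CPM scales a gene's UMIs by all UMIs of the same cells. The members, gene lists and tests were chosen with earlier results of these data known.

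UMIs were summed per library over the members (926568 to 4727481) and tested with edgeR 4.0.16 (quasi-likelihood test, TMM, filterByExpr) in R 4.3.3, with DESeq2 1.42.0 as an alternative. Standard errors (SE) are the size of the log2 fold change divided by the square root of edgeR's F statistic. Replicates are separate samples of the labels, which do not say whether animals were pooled, so p-values measure only the spread between samples. In data simulated for this comparison with 10703 genes and 200 changed, 135 were recovered with 9 false calls, and of 50 genes at each fold, 5 were recovered at 2-fold, 41 at 4-fold, 43 at 8-fold and 46 at 16-fold. Shares of members with a chosen OR, a second OR or a zonal marker, and OR UMIs per cell, used cells thinned to 3000 UMIs unless stated. The class I, ventral and *Olfr17* shares and the number of different ORs used all UMIs of each cell. Single values were compared by an exact two-sided permutation test over libraries, and zonal genes by an exact sign-flip test over 6 libraries. Intervals are exact Clopper-Pearson at 95% and floors are 3 counts, and both cover counting error only. The genes named were the markers, gate genes, HP1 genes and zonal genes, the 15 outside OR genes with the largest late peak, the 5 OR genes and 5 other genes in each direction with the smallest p whose replicate 1 and replicate 2 differences pointed one way, and the ORs chosen by most control members. The rule took the most abundant genes of the other lists as examples, and those printed outside it were chosen after their values were seen. Alternatives were another normalization, no filter, legacy dispersions, doublets removed, other gates, other OR thresholds, no thinning, the replicate block and leaving out each library. Genes that share reads with near-identical copies, as some OR genes do, are uncertain. A part of the genotype labels is not reported here.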

Additional observations from a re-analysis of the deposited data

How the results depend on the processing

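No gene was called in the main edgeR test of swap against control, nor with size factors of DESeq2, no filter, legacy dispersions or the other *Gap43* gates. DESeq2 itself called 32 genes, removal of predicted doublets gave 3 (*Cbx1*, *Olfr211* and *Olfr77*), leaving out OR genes gave 1 (*Cbx1*), and leaving out 1 library gave 28 to 219. With the replicate block 103 genes were called, among them *Gng13* (log2 fold change -0.67, edgeR adjusted p = 0.0299). *Cbx1*, *Cbx5*, *Tcfl5*, *1700030C10Rik*, *Gm7534*, *Cd74*, *Cck*, *Th*, *Stmnd1* and *Syt4* were also called with it. *Kcnh7*, *Pde1c*, *Pde4a* and *Ric8b* were not. The deviations of same-numbered libraries correlated at 0.33 over 10965 genes and at 0.699 over the 4845 genes with a mean log2 CPM above 5, but with only 2 pairs the numbers are not known to pair the samples. For the difference between stages DESeq2 called 22 and leaving out 1 library gave 0 to 43. The difference in the share of members with a chosen OR was -7.31 percentage points at 10 or more *Gap43* UMIs and -3.94 in cells without *Omp*, and ran from -12.2 to -8.80 without 1 library. That in OR UMIs per cell was -21.75 without thinning, -1.5 in cells without *Omp* and -1.5 in cells with it, and ran from -6 to -3. The second OR difference was -0.974 with a minimum of 1 UMI and ran from -0.660 to 2.73. The ventral share differed by -17.2 with the 33% most ventral ORs and by -28.0 with at least 5 cells per scored OR, and ran from -25.6 to -18.5. Without 1 library the ranges were -2.01 to 4.06 for the share of kept cells, -8.77 to -3.22 for class I ORs, -1.38 to 8.06 for *Nqo1*, -3.63 to 4.59 for *Acsm4*, -0.743 to 0 for *Avp* (-1.15 without thinning, 0 at 2000 UMIs), 0.0908 to 8.90 for *Nrp2* and -9.75 to -6.10 for different ORs. *Cbx3* changed sign, at 0.02 without swap replicate 1 and 0.10 without control replicate 1, within a range of -0.18 to 0.10. The splits by *Omp* were chosen after seeing the data, and the causes of these changes were not tested.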
